A study of Mus musculus with 28 samples.

Results

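Genes were selected whose response to Kap1 knockdown differed between TET TKO and wild-type (WT) mouse embryonic stem cells. For each gene the log2 change on knockdown in WT (shKAP1 minus shEmpty, 3 libraries each) was subtracted from the log2 change on knockdown in TET TKO (2 libraries each), and this difference of changes was tested with edgeR. A gene was called when its Benjamini-Hochberg adjusted p was below 0.05 and the 2 changes differed by at least 2-fold. Of 20321 genes tested, 855 were called (4.21%). The knockdown change was higher in TET TKO for 423 genes (2.08%) and lower for 432 genes (2.13%). The median difference of changes over all genes was 0.02 on the log2 scale, and 4775 genes had an unadjusted p below 0.05 in the edgeR test.

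The cells were naive ES cells grown without feeders on gelatin in 2i and LIF, that is, with inhibitors of MEK and GSK3 and leukaemia inhibitory factor. GEO's labels give the strain 129S4/SvJae and the line J1 for every RNA library. WT cells carried no targeted mutation, and TET TKO cells were knockouts of Tet1, Tet2 and Tet3. All cells were transduced with the empty vector (shEmpty) or a vector with a hairpin against Kap1 (shKAP1), selected with puromycin and collected after 5 days. The sources describe TET TKO as a genotype with no count of clones, so an effect of the missing enzymes and any other difference between the 2 cell lines cannot be told apart. A further 6 libraries of DNMT TKO cells, which lack Dnmt1, Dnmt3a and Dnmt3b, entered the fit and add to the estimate of the spread. The study obtained its TET TKO cells from the group of R. Jaenisch and its DNMT TKO cells from that of M. Okano.

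KAP1, encoded by Trim28, is a corepressor that KRAB zinc finger proteins bring to specific DNA sequences, above all in retroelements and imprinting control regions. There it gathers the enzymes that trimethylate lysine 9 of histone H3 (H3K9me3), remove histone acetylation and keep cytosines methylated. The TET enzymes oxidise 5-methylcytosine to 5-hydroxymethylcytosine (5hmC) and beyond, a path by which DNA methylation can be lost.

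The hairpin is shown because every change described here rests on it. Its sense strand, in capitals, is identical to 21 bases of a coding exon of Trim28, on the + strand at chr7:13615908-13615928 of mm9. Among annotated protein-coding transcripts these bases occur in those of 1 gene, and other transcripts were not searched.
shKAP1: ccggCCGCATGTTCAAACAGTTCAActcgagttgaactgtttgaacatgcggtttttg
Next are the 150 bases before the annotated start of 3 genes that the results turn on, in the direction of the gene, with each CpG, the dinucleotide on which both DNMT and TET enzymes act, in capitals. They are on the + strand of mm9 at chr1:58169824-58169973 (Aox3), chr6:146744427-146744576 (Arntl2) and chr2:87346572-87346721 (Pramel6). Pramel6 holds 1 CpG there, Aox3 holds 5 and Arntl2 holds 10.
Aox3: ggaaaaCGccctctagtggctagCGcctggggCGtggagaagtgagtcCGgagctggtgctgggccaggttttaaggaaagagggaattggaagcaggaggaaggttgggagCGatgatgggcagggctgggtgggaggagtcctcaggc
Arntl2: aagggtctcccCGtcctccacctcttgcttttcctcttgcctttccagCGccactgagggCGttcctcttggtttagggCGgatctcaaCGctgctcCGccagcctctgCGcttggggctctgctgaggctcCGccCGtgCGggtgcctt
Pramel6: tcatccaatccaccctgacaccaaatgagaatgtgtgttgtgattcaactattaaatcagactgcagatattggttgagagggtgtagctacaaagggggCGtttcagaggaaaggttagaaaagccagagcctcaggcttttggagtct

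Reads counted over genes numbered 18108431 to 28707470 in the 6 WT libraries and 19337417 to 29373696 in the 4 TET TKO libraries. Levels are given as CPM, the reads of a gene for each 1000000 reads counted over all genes in that library after TMM scaling, so they are not corrected for gene length and are compared between libraries only. Trim28 stood at 1627 to 1991 CPM in WT shEmpty and 149 to 190 CPM in WT shKAP1. In TET TKO it went from 1772 and 1899 CPM to 163 and 168 CPM, and the knockdown changes of the 2 lines differed by -0.06 log2 (edgeR adjusted p = 0.93). In DNMT TKO Trim28 fell less than in WT, with a difference of changes of 1.28 log2 (edgeR adjusted p = 0.0008). The DNMT TKO values given below were not corrected for this weaker knockdown. Tet1 lay at 219 to 247 CPM in the TET TKO libraries against 599 to 749 CPM in WT, and Tet2 at 71.8 to 92.1 CPM against 333 to 483 CPM. Counts are over whole genes, so they do not show whether these transcripts lack the deleted exons. The summed level of 7 naive ES cell markers was 3637 to 3858 CPM in the shEmpty libraries of both lines. It was 2200 to 2357 CPM in WT shKAP1 and 2733 to 2783 CPM in TET TKO shKAP1. Together 8 fibroblast markers reached 6.11 to 16.7 CPM over the 10 libraries, with Lum and Postn at 0 in both shKAP1 groups, and 1 of the 8, Thy1, had a lower change in TET TKO. Of 6 primitive endoderm markers, together at 12.4 to 17.9 CPM, 1, Dab2, had a higher change, and none of the 3 trophoblast and 3 neural markers tested was called. Of all genes 4.21% were called in either direction, so sets this small say little with or without a call. Together the trophoblast markers went from 2.44 to 3.4 CPM to 3.68 to 5.3 CPM in WT. In TET TKO they went from 2.18 to 2.29 CPM to 2.04 to 2.1 CPM. The neural markers went from 99.2 to 108 CPM to 41.3 to 42.1 CPM in WT. In TET TKO they went from 92.4 to 97.5 CPM to 66 to 70.6 CPM. The part of these cells in the results was not tested.

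The 2 directions were made up differently. Among the 432 genes with a lower change in TET TKO, 228 rose on knockdown in WT and were not called in TET TKO, and a further 51 rose in both lines. In WT 296 of the 432 rose, against 10.8% of all genes tested, and in TET TKO 84 fell, against 4.46%. Among the 423 genes with a higher change, 129 fell in WT and were not called in TET TKO, 105 rose in TET TKO and were not called in WT, 100 rose in both lines and 36 fell in both. In TET TKO 213 of the 423 rose, against 8.05% of all genes, and in WT 173 fell, against 6.54%. Only 8 genes fell in WT and rose in TET TKO, and 17 rose in WT and fell in TET TKO. These calls come from the same 10 libraries as the difference between lines and describe its parts, so they are no separate evidence for it. For the classes that join the calls of both lines, no share over all genes was counted, so they cannot be set against it. WT had 3 libraries per hairpin and TET TKO 2, so a response of the same size is more easily missed in TET TKO. Over all genes 3529 were called on knockdown in WT and 2542 in TET TKO.

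**Figure D1:**
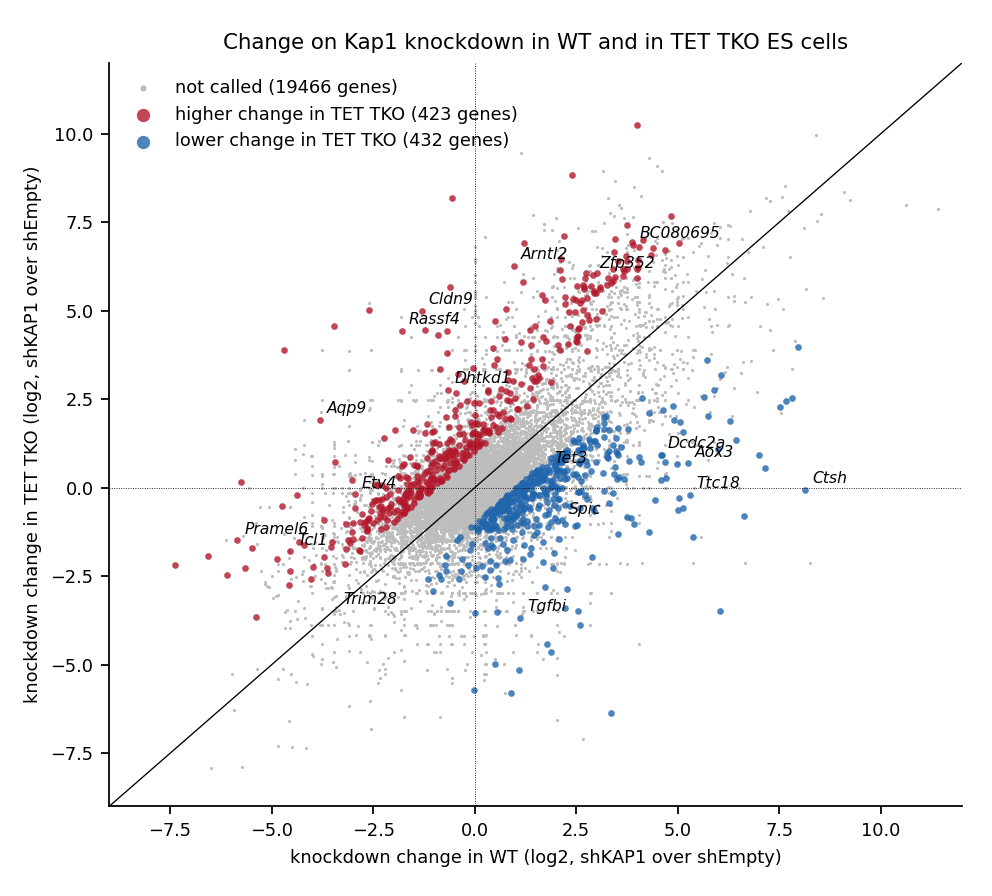
Log2 change on Kap1 knockdown in WT (x axis) and in TET TKO (y axis), 1 point per gene tested, with the 423 genes of higher change and the 432 genes of lower change in TET TKO coloured and the line of equal change drawn. Coloured points lie off that line by at least 1 log2, and many of the lower group lie to the right of it near 0 on the y axis.

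Much of the lower group started from a different level. With shEmpty, 212 of these 432 genes (49.1%) stood higher in TET TKO than in WT, against 5.66% of all genes tested, and 5 stood lower, against 4.80%. With shKAP1, 135 of the 432 were lower in TET TKO, against 4.97%, 34 were higher and 263 (60.9%) were not called. For 168 genes the lines differed before knockdown, with TET TKO higher, and no longer differed by the same criteria after it. Another 120 did not differ before knockdown and were lower in TET TKO after it. No share over all genes was counted for these joint classes. In the higher group the order was the other way round. With shEmpty 150 of 423 (35.5%) stood lower in TET TKO and 22 higher, while with shKAP1 228 (53.9%) stood higher in TET TKO, against 6.10% of all genes. The shEmpty and shKAP1 libraries enter both the comparison of lines and the difference of changes, so a low value in TET TKO shEmpty by itself lowers the shEmpty comparison of the lines and raises the difference of changes.

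**Figure D2:**
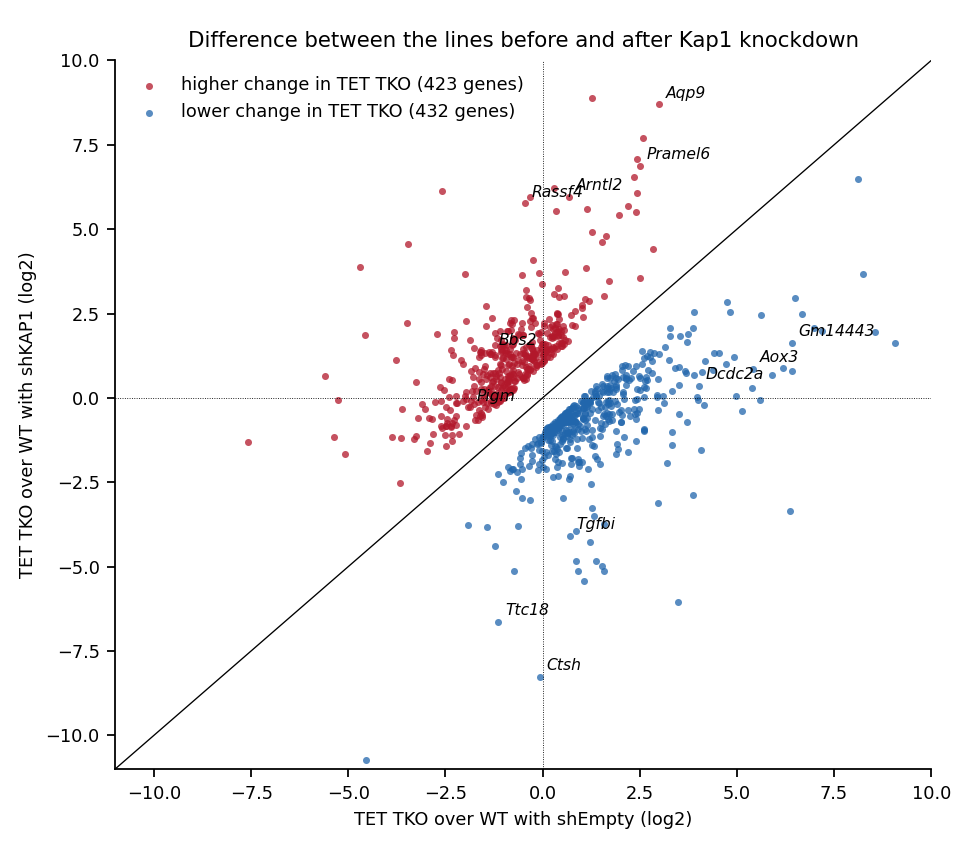
Log2 difference of TET TKO from WT with shEmpty (x axis) and with shKAP1 (y axis), 1 point per called gene, coloured by direction, with the line of equal difference drawn. The genes of lower change spread along the x axis to the right of 0, and those of higher change spread upwards.

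Ctsh, which encodes the lysosomal protease cathepsin H (chr9:89948990-89970927), had the largest difference on the lower side among called genes with at least 500 reads and showed no detectable response in TET TKO. Its level was 0.167, 0.285 and 0.319 CPM in WT shEmpty and 57.8, 84.2 and 89 CPM in WT shKAP1. In TET TKO it was 0.176 and 0.338 CPM with shEmpty and 0.324 and 0.154 CPM with shKAP1. Only the 3 WT shKAP1 libraries were high, and the TET TKO libraries of both hairpins overlapped. The change was 8.14 ± 0.25 log2 (SE) in WT and -0.07 ± 0.64 in TET TKO, and the difference was -8.20 ± 0.84 (edgeR adjusted p = 6.2e-06). The same difference for DNMT TKO, which uses the same WT libraries, was -8.60 (edgeR adjusted p = 5.8e-08).

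Ttc18, a gene of motile cilia (chr14:21213412-21271448), showed the same layout. It rose from 0.833, 0.854 and 1.06 CPM to 23.6, 42.4 and 43.9 CPM in WT. In TET TKO the levels were 0.493 and 0.338 CPM with shEmpty and 0.556 and 0.154 CPM with shKAP1. WT shKAP1 replicate 1 was the lowest of its group, yet all 3 lay far above every other library. The difference of changes was -5.50 ± 0.96 log2 (edgeR adjusted p = 0.0026), whereas that of DNMT TKO was 0.66 (adjusted p = 0.44). Ctsh and Ttc18 thus had like values in TET TKO and unlike values in DNMT TKO. Trim28 fell less in DNMT TKO than in WT, and the part of this in the DNMT TKO values was not tested.

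Aox3, an aldehyde oxidase gene (chr1:58169974-58257542), had the smallest adjusted p of all and belonged to the genes already active in TET TKO. Its level was 0.637 to 1.03 CPM in WT shEmpty and 32.7 to 33.2 CPM in WT shKAP1. In TET TKO it was 37 and 37.3 CPM without knockdown and 61.3 and 58.6 CPM with it. The TET TKO shEmpty libraries thus lay above the WT libraries of knockdown, and the lines differed by 5.42 log2 with shEmpty. The change was 5.25 ± 0.12 log2 in WT and 0.69 ± 0.10 in TET TKO, a difference of -4.56 ± 0.16 (edgeR adjusted p = 1.2e-11), beside -4.02 for DNMT TKO.

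Gm14443 (chr2:174991756-175001372) rose from 0.178 to 0.566 CPM to 8.44 to 8.74 CPM in WT, while TET TKO held 32.1 and 35.1 CPM with shEmpty and 26.9 and 26.3 CPM with shKAP1. Here the TET TKO level did not rise, and it was above WT in all libraries. The difference of changes was -4.78 ± 0.24 log2 (edgeR adjusted p = 1e-09), with -4.62 for DNMT TKO. Dcdc2a, a doublecortin domain gene (chr13:25147873-25302575), stood at 0.354 to 0.569 CPM in WT shEmpty and 10.2 to 11.4 CPM in WT shKAP1. TET TKO gave 7.75 and 6.83 CPM with shEmpty and 13.3 and 14.4 CPM with shKAP1. Its shEmpty levels did not overlap between lines, and its difference of changes was -3.67 ± 0.23 log2 (edgeR adjusted p = 2e-08), with -4.68 for DNMT TKO. Both a KAP1 region and KAP1-dependent H3K9me3 of WT cells lay within 2 kb of its start.

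2810429I04Rik, a non-coding transcript (chr13:3477489-3493644), still responded in TET TKO, from a raised starting level. WT went from 0.111 to 0.249 CPM to 34.8 to 36.4 CPM, and TET TKO from 11.5 and 11.7 CPM to 55.5 and 57.7 CPM. The lines ended within 1 log2 of each other, and the difference of changes was -5.23 ± 0.35 log2 (edgeR adjusted p = 4.5e-08). Ankrd45, which encodes an ankyrin repeat protein (chr1:163072822-163099237), started apart, at 6.11 to 7.15 CPM in WT and 27.9 and 29.2 CPM in TET TKO. With shKAP1 the lines overlapped, at 91.2 to 92.2 CPM and 87.2 and 92.5 CPM. The difference of changes was -2.12 ± 0.13 log2 (edgeR adjusted p = 2.1e-08). Serpina3m, of the serine protease inhibitor family (chr12:105625374-105632467), rose from 0.0712 to 0.167 CPM to 5.45 to 9.44 CPM in WT and from 15.9 and 16.1 CPM to 33.7 and 34.5 CPM in TET TKO, a difference of -4.91 ± 0.59 log2 (edgeR adjusted p = 8.9e-05). All 4 TET TKO libraries lay above all 6 WT libraries. Genes of this family resemble one another, so reads may have been split between them. For DNMT TKO the differences were -3.35 (2810429I04Rik), -1.12 (Ankrd45) and -2.14 (Serpina3m).

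A retroelement upstream of Serpina3m followed the gene. It is an RLTR9E element with the internal sequence MMERVK9C, on the same strand at chr12:105615390-105621194. It gave 0 to 0.0555 CPM in WT shEmpty, 1.47 to 2.38 CPM in WT shKAP1, 11.1 and 14.0 CPM in TET TKO shEmpty and 20.8 and 26.0 CPM in TET TKO shKAP1. The groups kept the order of the gene, and the difference of changes was -5.09 ± 0.51 log2 (edgeR adjusted p = 4.9e-19 among 123880 retroelements tested).

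A further set of the lower group had lower levels after knockdown in TET TKO, of which Tgfbi passed the criteria for a fall. Tgfbi, an extracellular matrix protein named for its induction by TGF-beta (chr13:56710920-56740923), was at 2.65 to 4.55 CPM in WT shEmpty, 5.65 to 9.75 CPM in WT shKAP1 and 5.46 and 5.26 CPM in TET TKO shEmpty. Only in TET TKO shKAP1 was it low, at 0.278 and 0.565 CPM. The difference of changes was -4.80 ± 0.45 log2 (edgeR adjusted p = 2.6e-06), with -2.12 for DNMT TKO. Spic, an ETS family transcription factor (chr10:88137517-88147760), rose from 2.17 to 3.05 CPM to 9.81 to 13.7 CPM in WT and went from 55.2 and 53.1 CPM to 29.6 and 27.5 CPM in TET TKO. Its 4 groups did not overlap, and the change in TET TKO was -0.92 log2, under 2-fold. The difference was -3.07 ± 0.20 log2 (edgeR adjusted p = 3.4e-08), with -2.22 for DNMT TKO. Itgb5, an integrin beta chain (chr16:33829751-33949239), rose from 42.3 to 47.4 CPM to 96.6 to 119 CPM in WT. In TET TKO it was at 202 and 201 CPM before and 134 and 138 CPM after knockdown (-0.56 log2, under 2-fold). The difference was -1.78 ± 0.12 log2 (edgeR adjusted p = 2.5e-08), with -0.76 for DNMT TKO, which was not called.

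In the higher group Arntl2, a circadian transcription factor related to BMAL1 (chr6:146744577-146782051), responded in TET TKO far more than in WT. It stood at 0.854 to 1.24 CPM in WT shEmpty, 1.99 to 2.24 CPM in WT shKAP1, 1.83 and 1.61 CPM in TET TKO shEmpty and 133 and 132 CPM in TET TKO shKAP1. The last pair lay far above all other libraries. The change was 0.97 ± 0.19 log2 in WT and 6.26 ± 0.17 in TET TKO, a difference of 5.28 ± 0.26 (edgeR adjusted p = 1e-09), and for DNMT TKO the difference was -0.58. An ETn element on the same strand upstream of the gene (RLTRETN_Mm and MMETn, chr6:146734892-146740382) gave 0.566 to 1.17 CPM in WT shEmpty and 3.16 to 3.68 CPM in WT shKAP1. In TET TKO it gave 5.39 and 3.31 CPM with shEmpty and 48.3 and 50.9 CPM with shKAP1, a difference of changes of 1.47 ± 0.31 log2 (edgeR adjusted p = 6.0e-04). The element thus also responded in WT, where the gene stayed low.

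Rassf4, a Ras association domain gene (chr6:116583026-116623854), fell in WT and rose in TET TKO. Its level was 3.83 to 4.92 CPM and then 0.953 to 1.71 CPM in WT, and 3.52 and 2.97 CPM and then 71 and 69 CPM in TET TKO. The shEmpty libraries of both lines lay close together, and the difference arose on knockdown (6.23 ± 0.41 log2, edgeR adjusted p = 6.9e-07, beside 7.27 for DNMT TKO). Aqp9, a channel for water and glycerol (chr9:70958466-71016489), also moved in both directions, from 0.666 to 1.27 CPM to 0.0433 to 0.107 CPM in WT and from 7.9 and 7.81 CPM to 30.8 and 28.3 CPM in TET TKO. Its 4 groups did not overlap, and its difference was 5.71 ± 0.45 log2 (edgeR adjusted p = 3.1e-07), with 2.23 for DNMT TKO. Limch1, whose product acts on non-muscle myosin (chr5:67137074-67448398), was at 0.746 to 2.22 CPM in WT. It reached 43.5 and 48.2 CPM in TET TKO shKAP1 from 3.42 and 3.19 CPM. The difference was 4.48 ± 0.41 log2 (edgeR adjusted p = 2.8e-06), with 2.60 for DNMT TKO.

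Cldn9, a claudin of tight junctions (chr17:23819552-23820985), was at 0.13 to 0.672 CPM in all WT libraries and at 0.564 and 0.413 CPM in TET TKO shEmpty, and reached 17.6 and 13.8 CPM in TET TKO shKAP1 (6.28 ± 0.48 log2, edgeR adjusted p = 2.1e-07). Prr18, on the same chromosome (chr17:8533271-8536977), was at 0.157 to 0.427 CPM in WT, 2.29 and 2.29 CPM in TET TKO shEmpty and 48.6 and 50 CPM in TET TKO shKAP1 (5.12 ± 0.39 log2, edgeR adjusted p = 2.2e-07). For DNMT TKO the differences were 1.71 for Cldn9 and 0.57 for Prr18, neither called. Both genes had a full MERVL element upstream on the same strand, at 2002 and 2767 bases from the start. The elements themselves had 34 and 657 reads over all libraries, with differences of -0.72 and 0.98 log2 (edgeR adjusted p = 0.9 and 0.64). Neither was called, and 34 reads are too few to show whether the element near Cldn9 responded. The pseudogene Gm8711 had no read in TET TKO shEmpty, 6.44 and 6.57 CPM in TET TKO shKAP1, 0.111 to 0.319 CPM in WT shEmpty and 3.98 to 4.37 CPM in WT shKAP1. With a floor of 3 reads over the empty group, its change was at least 6.8-fold higher in TET TKO.

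Several genes of higher level joined this group with small errors. Dhtkd1, an enzyme of mitochondrial lysine breakdown (chr2:5817161-5863838), was at 36.6 to 40.8 CPM and 20.9 to 27.2 CPM in WT and went from 28.6 and 29.4 CPM to 198 and 194 CPM in TET TKO (3.42 ± 0.18 log2, edgeR adjusted p = 4.5e-09). Bbs2, a subunit of the BBSome of cilia (chr8:96591854-96622711), went from 8.74 and 9.61 CPM to 44.7 and 39.1 CPM in TET TKO, while WT showed 21 to 24.4 CPM and 15.5 to 17.1 CPM (2.69 ± 0.15 log2, edgeR adjusted p = 4.5e-09). Pigm, a mannosyltransferase of GPI anchor synthesis (chr1:174306662-174314230), did not pass the test in WT, with 70.8 to 74.6 CPM and 67.3 to 73.1 CPM. In TET TKO it started at 20.2 and 19.5 CPM and reached 57.2 and 58.8 CPM with knockdown (1.59 ± 0.09 log2, edgeR adjusted p = 5.1e-09). Pigm and Bbs2 therefore stood lower in TET TKO before knockdown, and Dhtkd1 rose beyond WT. 1500031L02Rik rose in both lines, from 13.7 to 14.7 CPM to 37.4 to 40.2 CPM in WT. In TET TKO it went from 6.7 and 7.02 CPM to 71.2 and 69.5 CPM (1.90 ± 0.11 log2, edgeR adjusted p = 5.1e-09). For DNMT TKO the differences were -0.04 (Dhtkd1), 0.28 (Bbs2) and 0.16 (Pigm), none called, and -1.91 (1500031L02Rik), called lower.

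**Figure D3:**
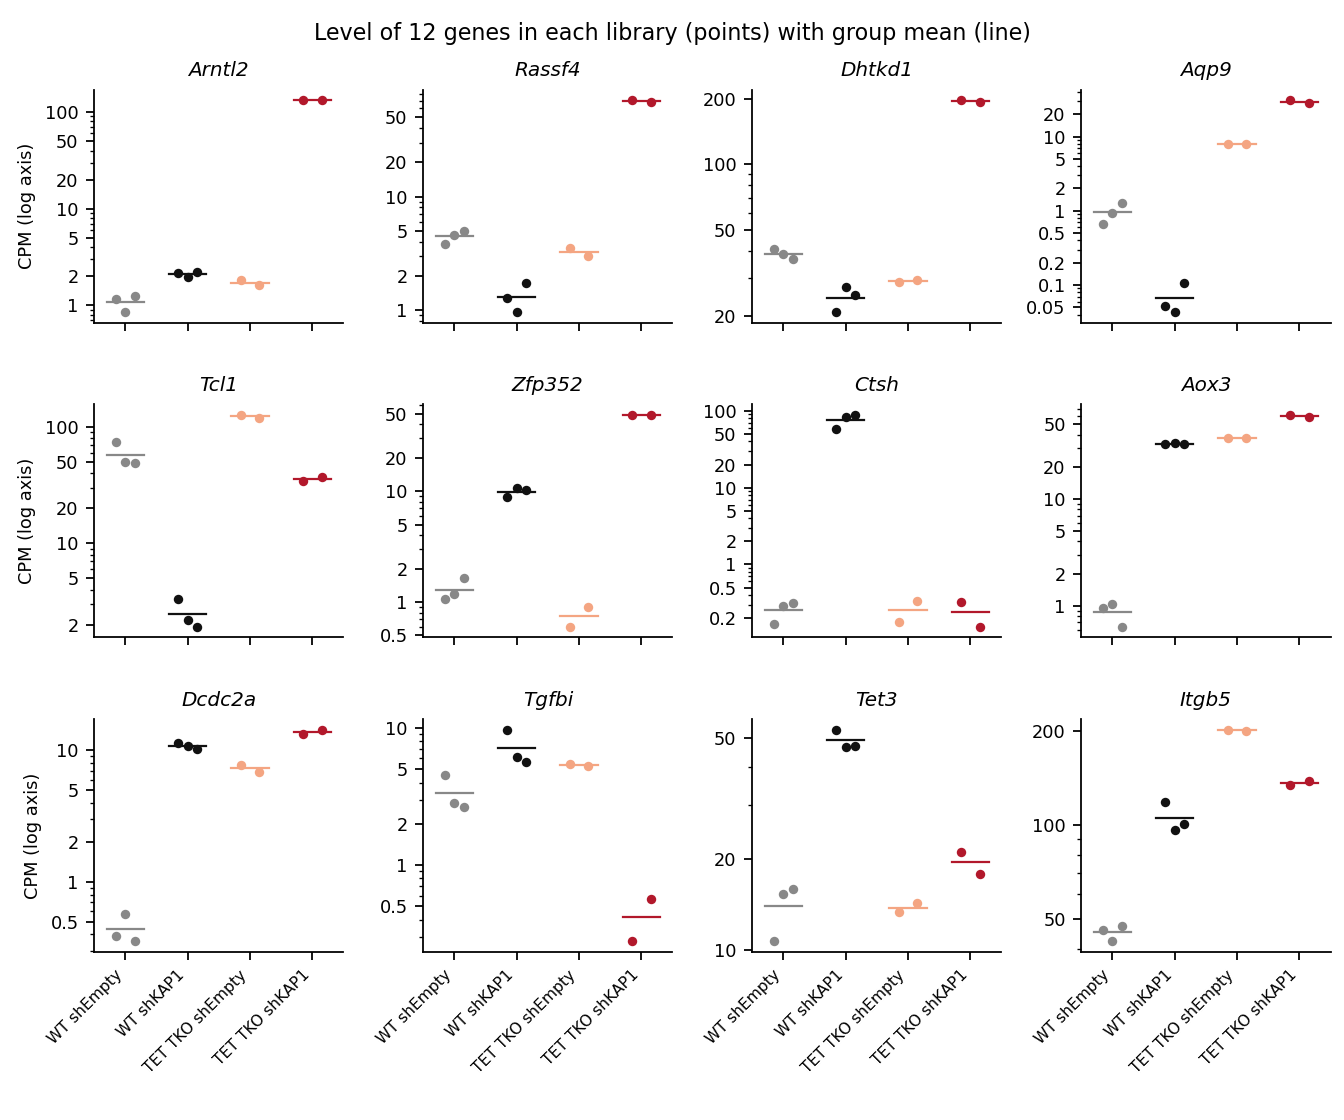
CPM of 12 genes in each of the 10 libraries (points, log axis) with the group mean (line), by line and hairpin. In Ctsh only the WT shKAP1 libraries are high, in Arntl2 only the TET TKO shKAP1 libraries, and in Aox3 the TET TKO shEmpty libraries already lie at 37 CPM.

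Of 35 genes of the naive state tested, 6 had a higher change in TET TKO (17.1%, against 2.08% of all genes) and none a lower one, and the median difference of changes was 0.31 log2. In all fits that left out a library 4 of the 6 were kept. Of the 35, 13 fell on knockdown in WT and 6 in TET TKO, against 6.54% and 4.46% of all genes. Pramel6, a PRAME family gene of early embryos (chr2:87346722-87351029), fell from 7.39, 22.3 and 20.9 CPM to 0.213 to 0.39 CPM in WT. In TET TKO it went from 101 and 95.7 CPM to 33.3 and 37.1 CPM. WT shEmpty replicate 1 was the lowest of its group, and the knockdown libraries of TET TKO lay above every WT library (4.36 ± 0.78 log2, edgeR adjusted p = 0.0045, beside 4.63 for DNMT TKO). Its neighbour Pramel7, whose product lowers UHRF1 and with it DNA methylation, had a difference of 3.63 ± 0.68 (edgeR adjusted p = 0.0042, beside 4.98 for DNMT TKO). The 2 genes are related in sequence, so reads may have been shared.

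Tcl1, a coactivator of the kinase AKT (chr12:106454960-106461003), fell from 49.4 to 74.1 CPM to 1.92 to 3.3 CPM in WT and from 127 and 120 CPM to 34.2 and 37.1 CPM in TET TKO (2.74 ± 0.28 log2, edgeR adjusted p = 3e-05, beside 3.16 for DNMT TKO). Both lines fell, and TET TKO kept a level above that of the WT libraries of knockdown. Spp1, the secreted phosphoprotein osteopontin (chr5:104864137-104870069), fell from 1320 to 1505 CPM to 560 to 588 CPM in WT, and its TET TKO levels were 1322 and 1224 CPM and then 1101 and 1136 CPM (1.15 ± 0.11 log2, edgeR adjusted p = 4.8e-06). Nr0b1 and Prdm14, transcriptional regulators of the naive state, had differences of 1.43 and 1.04 log2. The call of Nr0b1 was lost without any 1 of the 4 TET TKO libraries (1.19 to 1.56 log2 over all 10 fits that left out a library). That of Prdm14 was lost without WT shEmpty replicate 3 or WT shKAP1 replicate 1 (0.92 to 1.12 log2).

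Among 28 genes of the formative and primed states 4 had a higher (14.3%, against 2.08% of all genes) and 1 a lower change (3.57%, against 2.13%), with a median of 0.42 log2. In all fits that left out a library 2 of the 4 and none of the lower calls were kept. Etv4, an ETS factor downstream of FGF signalling (chr11:101631056-101646685), fell from 81.8 to 93.8 CPM to 10.5 to 11.9 CPM in WT and was at 56.7 and 62.5 CPM and then 48.8 and 56.1 CPM in TET TKO. The difference was 2.77 ± 0.22 log2 (edgeR adjusted p = 1.8e-06), with 0.80 for DNMT TKO, which was not called. Tcf15, a basic helix-loop-helix factor of this stage, differed by 2.42 ± 0.39 log2 (edgeR adjusted p = 0.00071).

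Most genes of the 2-cell embryo, a set that ES cells switch on in rare cells, rose in both lines. Of 33 tested, 30 rose in WT and 30 in TET TKO, where 1 fell, against 10.8% and 8.05% of all genes that rose. The change was higher in TET TKO for 13 (39.4%, against 2.08% of all genes) and lower for 1 (3.03%, against 2.13%). In all fits that left out a library 7 of the 13 and the lower call were kept. The list was chosen with earlier results of these data known. It holds Lrrn4, which the study reported from these libraries as higher in TET TKO on knockdown, so that call is no separate support. Its only lower call, Zfp809, is also on the list of KAP1 and H3K9 methylation. The median difference of changes was 2.18 log2 and 1.94 with genes that had an empty group set at their bound. Many are near copies of one another, so counts of members overstate how many separate loci moved, and values of single Zscan4, Tdpoz and Pramef genes may hold reads of their copies. In bulk samples more cells in this state and more RNA per cell cannot be told apart.

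Zfp352, a zinc finger gene of the 2-cell stage (chr4:89885511-89892393), went from 1.05 to 1.66 CPM to 8.81 to 10.7 CPM in WT and from 0.599 and 0.901 CPM to 48.6 and 48.7 CPM in TET TKO (3.11 ± 0.60 log2, edgeR adjusted p = 0.0043). Zscan4d, which acts in telomere maintenance (chr7:11746992-11751497), went from 5.5 to 10.8 CPM to 89.5 to 94.6 CPM in WT and from 4.02 and 3.34 CPM to 271 and 267 CPM in TET TKO (2.78 ± 0.52 log2, edgeR adjusted p = 0.0063). With shEmpty neither gene was called between the lines, and with shKAP1 both TET TKO libraries lay above all 3 WT libraries. Zscan4b, Pramef6 and Tdpoz3 differed by 2.86, 2.84 and 2.36 log2 (edgeR adjusted p = 0.0033, 0.0015 and 0.0015). Dux, the factor that activates this programme, had 1.96 ± 0.75 log2 and was not called (edgeR adjusted p = 0.11), nor was Iqcf1, with 2.61 log2 (adjusted p = 0.25). With shKAP1 alone both stood higher in TET TKO than in WT, by 1.04 (edgeR adjusted p = 0.0099) and 4.49 log2 (adjusted p = 1e-06), in libraries that the difference also uses. The gene of lower change was Zfp809, a KRAB zinc finger gene that silences murine leukaemia virus (-1.06 log2, edgeR adjusted p = 0.001).

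MERVL, a retroelement of the 2-cell stage, was, of 6 families examined, the one most often found near the higher group. Within 5 kb of the start, 32 of 423 higher genes (7.57%) had MERVL or its LTR MT2_Mm, against 2 of 432 lower genes (0.463%) and 1.28% of all genes tested. In 20 of the 32 an element lay upstream or over the start on the strand of the gene. ORR1A0 elements lay near 1.89% of higher genes and 0.433% of all genes. For IAP (1.18% and 1.12%), ETn (0.709% and 0.743%), MMERVK10C (1.65% and 1.61%) and young L1 elements (3.31% and 3.63%) the shares in the higher group lay near those of all genes. No test was made of these shares, since genes of 1 family share both sequence and neighbouring elements.

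The elements themselves were also measured, from reads the authors counted over a repeat track, with 0.831% of 123880 retroelements called higher in TET TKO and 0.243% called lower. Of 1618 MERVL or MT2_Mm integrants tested, 221 were called higher and 1 lower, with a median difference of 1.81 log2. A called-higher integrant of any family lay within 5 kb of 45 higher genes (10.6%), 2 lower genes (0.463%) and 0.797% of all genes. A called-lower one lay near 12 lower genes (2.78%), none of the higher genes and 0.251% of all genes. An element and a gene that overlap can count the same reads, so the 2 values are not separate measurements at such places.

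Of the 32 higher genes near MERVL or MT2_Mm, 27 had an integrant that could be tested. It was called for 6 of the 27, had a positive difference for 21 and a negative one for others, such as -1.76 log2 near Ddit4l and -1.56 near Tie1, neither called. The pairs that follow are among the 6. Lrrn4, a leucine-rich repeat gene (chr2:132694041-132706627), was at the following levels. The gene was at 2.51 to 3.5 CPM in WT shEmpty, 8.07 to 9.14 CPM in WT shKAP1, 4.26 and 3.53 CPM in TET TKO shEmpty and 36.3 and 34.1 CPM in TET TKO shKAP1 (1.62 ± 0.28 log2, edgeR adjusted p = 0.0013). The MERVL element 4712 bases upstream on the same strand (chr2:132711339-132717808) went from 0.833 to 1.03 CPM to 6.82 to 9.12 CPM in WT and from 1.38 and 0.864 CPM to 37.8 and 33.2 CPM in TET TKO (1.91 ± 0.33 log2, edgeR adjusted p = 7.5e-06). Gene and element kept the same order of groups, with the TET TKO knockdown libraries on top. AA792892, with a MERVL element 3788 bases upstream, differed by 1.93 log2 (edgeR adjusted p = 0.00066) and its element by 2.14 (adjusted p = 6.7e-08). Neto2, an auxiliary subunit of kainate receptors with a lone MT2_Mm LTR 1639 bases upstream, differed by 1.11 ± 0.16 log2 (edgeR adjusted p = 0.00022) and the LTR by 2.85 (adjusted p = 0.0036).
The first 150 bases of the MT2_Mm LTRs that begin the elements of Lrrn4 (chr2:132717659-132717808) and Neto2 (chr8:88226635-88226784) are shown because the 2 elements share this sequence. In the element of Lrrn4 they lie at the end far from the gene, more than 5 kb from its start. The 4712 bases given above run to the near end. Both stretches are read on the - strand of mm9 with each CpG in capitals, and 146 of 150 bases are identical.
Lrrn4 LTR: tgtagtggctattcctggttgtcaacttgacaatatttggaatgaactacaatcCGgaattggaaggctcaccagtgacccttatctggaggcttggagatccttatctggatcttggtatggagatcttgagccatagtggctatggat
Neto2 LTR: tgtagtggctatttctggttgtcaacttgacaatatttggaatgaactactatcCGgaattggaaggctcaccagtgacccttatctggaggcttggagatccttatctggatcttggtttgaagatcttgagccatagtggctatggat

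Germline genes that DNA methylation is known to silence were the other large group. Of 56 tested, 13 had a higher change in TET TKO (23.2%, against 2.08% of all genes) and 2 a lower change (3.57%, against 2.13%), with a median of 0.91 log2. In all fits that left out a library 8 of the 13 and 1 of the 2 were kept. Stk31, a testis kinase gene (chr6:49345603-49419500), was at 7 to 7.9 CPM in WT shEmpty, 8.32 to 9.48 CPM in WT shKAP1, 24 and 21.2 CPM in TET TKO shEmpty and 70.1 and 72.5 CPM in TET TKO shKAP1. All TET TKO libraries lay above all WT libraries, and the difference of changes was 1.43 ± 0.14 log2 (edgeR adjusted p = 3.7e-06). Tuba3a, a testis tubulin, went from 16.4 to 23 CPM to 5.5 to 8.01 CPM in WT and from 27.2 and 25.3 CPM to 41.4 and 40.8 CPM in TET TKO (2.14 log2, edgeR adjusted p = 5.6e-06). Sycp3, of the synaptonemal complex, fell from 5 to 7.64 CPM to 2.57 to 3.9 CPM in WT and was at 4.55 and 4.21 CPM and then 7.18 and 7.08 CPM in TET TKO (1.75 log2, edgeR adjusted p = 0.003). The testis TFIID subunit Taf7l (1.77), the meiotic axis gene Hormad1 (1.31), and Piwil2 (1.22) and Fkbp6 (1.12) of the piRNA pathway were likewise in the higher group by edgeR. Of these 4, Taf7l rose in both lines, Piwil2 and Fkbp6 in TET TKO alone by the criteria used, and Hormad1 fell in WT.

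The trophoblast, matrix and Hox lists held lower calls, against 2.13% of all genes, and no higher ones, as did 4 other lists described further on, of chromatin and stress genes. Of 20 trophoblast genes 3 had a lower change (median -0.64 log2, 5 genes with a positive value), of 22 fibroblast and matrix genes 3 (13.6%, median -0.63, 9 positive), and of 38 Hox genes 2 (5.26%, median -0.23, 13 positive). In all fits that left out a library 2, 1 and 0 of these calls were kept. Gata2, a GATA factor of trophoblast and blood (chr6:88143885-88157024), went from 4.33 to 7.61 CPM to 2.72 to 3.46 CPM in WT and from 10.6 and 10.6 CPM to 1.16 and 1.64 CPM in TET TKO (-1.90 ± 0.36 log2, edgeR adjusted p = 0.0026). Gata2 thus fell in both lines, and further in TET TKO, and its difference for DNMT TKO was -0.75, which was not called. Of the 20 trophoblast genes tested, 11 rose and 2 fell in WT, and 4 rose and 2 fell in TET TKO. Of all genes, 10.8% rose and 6.54% fell in WT, and 8.05% rose and 4.46% fell in TET TKO. The median change of the trophoblast list was 1.18 log2 in WT and -0.16 in TET TKO. Rhox9, a homeobox gene of the reproductive X-linked cluster, differed by -2.88 log2 (edgeR adjusted p = 0.002), with -2.4 for DNMT TKO. It is also on the germline list. Col5a2, a collagen chain, rose from 0.666 to 0.676 CPM to 3.98 to 4.82 CPM in WT. In TET TKO it rose from 0.916 and 0.976 CPM to 2.36 and 2 CPM (-1.47 log2, edgeR adjusted p = 0.0038, beside -2.66 for DNMT TKO).

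Of 58 imprinted genes 1 had a higher (1.72%) and 2 a lower change (3.45%), shares near those of all genes (2.08% and 2.13%), with a median of -0.15 log2. Nnat, a neuronal membrane proteolipid gene (chr2:157385814-157388258), was at 2.27 to 3.49 CPM and then 4.11 to 5.45 CPM in WT and at 0.881 and 0.638 CPM and then 5.7 and 4.77 CPM in TET TKO. The lines overlapped after knockdown, and TET TKO had lain lower before it (2.13 ± 0.38 log2, edgeR adjusted p = 0.0016). Sfmbt2, a Polycomb-type gene with a paternally expressed allele in extraembryonic tissue (chr2:10292137-10516880), rose from 30 to 38.1 CPM to 43.5 to 46.3 CPM in WT, under 2-fold, and fell from 56.6 and 60.6 CPM to 27.2 and 25.5 CPM in TET TKO (-1.55 ± 0.13 log2, edgeR adjusted p = 8.8e-07). Igf2, insulin-like growth factor 2, had -1.31 log2 (edgeR adjusted p = 0.03). With the replicate number as a block it had -1.28 (adjusted p = 0.052), and its call was lost without WT shEmpty replicate 2, WT shKAP1 replicate 1 or any 1 of the TET TKO libraries (-1.52 to -1.08). Meg3 had -0.60 log2 (edgeR adjusted p = 0.049), under the 2-fold threshold, and Kcnq1 1.91 (adjusted p = 0.52).

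The lists of chromatin genes had lower calls in shares near the 2.13% of all genes. Of 32 genes of the DNA methylation and TET machinery 1 (3.12%), Tet3, had a lower change. It rose from 10.7 to 15.9 CPM to 46.6 to 53.3 CPM in WT and was at 13.3 and 14.2 CPM and then 21.0 and 17.8 CPM in TET TKO, a difference of -1.30 ± 0.22 log2 (edgeR adjusted p = 0.0012), with -1.67 for DNMT TKO. Only the WT libraries of knockdown stood clearly apart. Tet3 is a gene deleted in TET TKO cells, so its count there includes whatever transcript the deletion leaves. Of 33 Polycomb genes 1 (3.03%), Cbx8, had a lower change (-1.29 ± 0.24 log2, edgeR adjusted p = 0.0022), and of 39 genes of KAP1 and H3K9 methylation 1 (2.56%), Zfp809. The lists of signalling, lineage and stress genes had between 0 and 4 calls in each direction, beside 2.08% higher and 2.13% lower of all genes. They were mesoderm and endoderm (3 higher and 3 lower of 41), Nodal, BMP and WNT (2 and 1 of 40), neural (4 and 1 of 32), p53 targets (1 and 0 of 32), interferon and nucleic acid sensing (2 and 1 of 44) and the integrated stress response (0 and 2 of 31). In all fits that left out a library, 1 of these calls was kept, the higher one of Inhbb. None of 8 clustered protocadherins was called. Of 54 olfactory and vomeronasal receptor genes 4 were higher (7.41%) and 1 lower (1.85%), and of 336 genes with a numbered Zfp symbol 8 (2.38%) and 4 (1.19%). In all fits that left out a library, 0 of the 4 higher receptor calls and the 1 lower call were kept. Of the Zfp calls, 7 of the 8 and 3 of the 4 were kept.

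**Figure D4:**
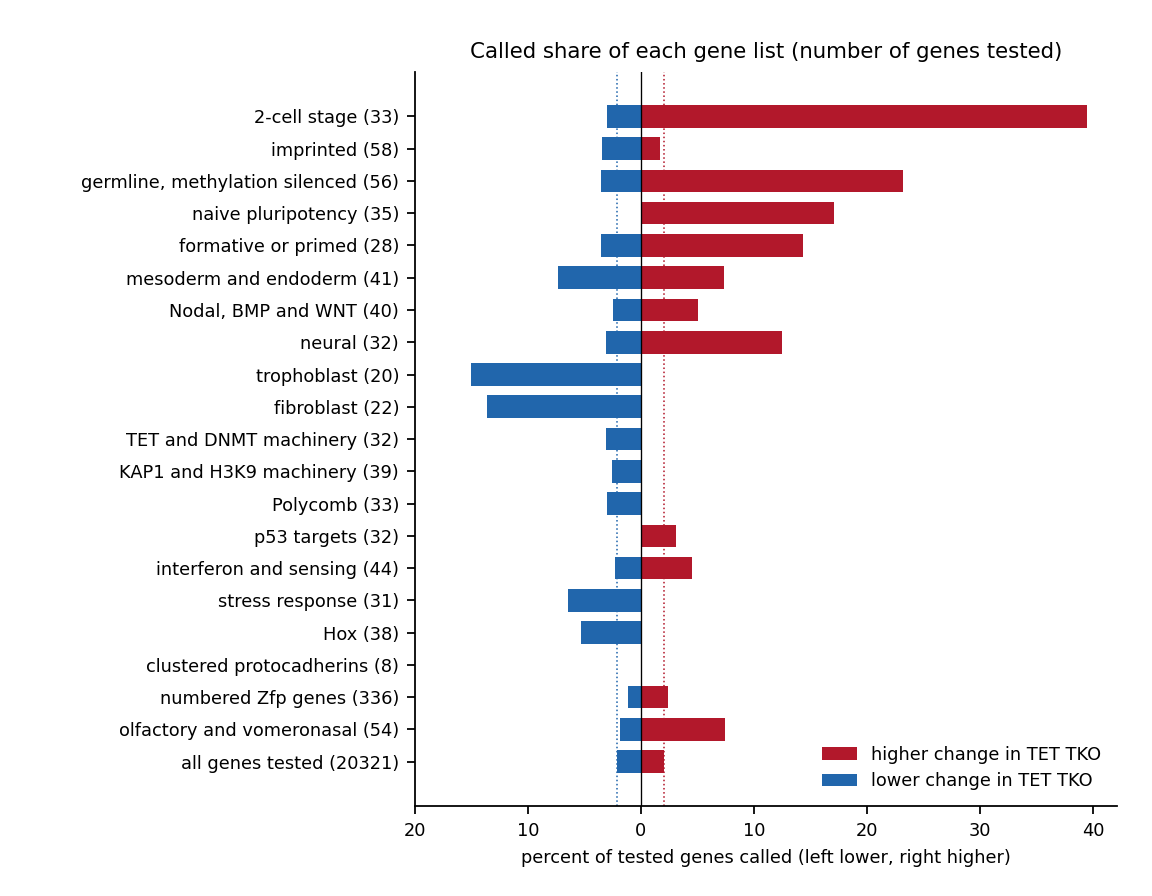
Percent of the genes tested in each list with a higher (right) or lower (left) knockdown change in TET TKO, beside the percent of all genes tested. The 2-cell list reaches 39.4% and the germline list 23.2% on the higher side, against 2.08% of all genes.

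Marks of WT cells at the start occurred in different shares of the 2 directions, some of them near those of all genes, and no test was made of these shares. H3K27me3, the Polycomb mark, lay within 2 kb of the start in 41.7% of lower genes, 26.5% of higher genes and 17.6% of all genes tested. H3K4me3, a mark of active and poised starts, lay there in 69.2%, 57.7% and 70.7%, and both marks together in 38.4%, 22.7% and 14.7%. Neither mark was present in 38.5% of higher genes and 26.5% of all genes. A KAP1 region lay within 2 kb of 8.80% of lower genes, 5.91% of higher genes and 5.57% of all genes, and KAP1-dependent H3K9me3 of 3.70%, 2.36% and 1.67%. For most members of both groups no KAP1 region was therefore listed near the start. These region sets were called in WT and say nothing of TET TKO.

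Starts of higher genes were poorer in CpG. In the 300 bases from 250 before to 50 after the start, taken from the mm9 genome at the annotated starts, the median number of CpGs was 8 for 423 higher genes, 11 for 431 lower genes with a sequence and 14 for 20316 genes in all. The ratio of observed to expected CpG was below 0.4 in 50.6%, 36.4% and 31.0% of these windows. TATAAA, searched on both strands, occurred in 15.6% of higher, 10.4% of lower and 10.6% of all windows. The motif TGCCGC, searched in the same way, occurred in 10.6%, 13.7% and 15.8%.

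**Figure D5:**
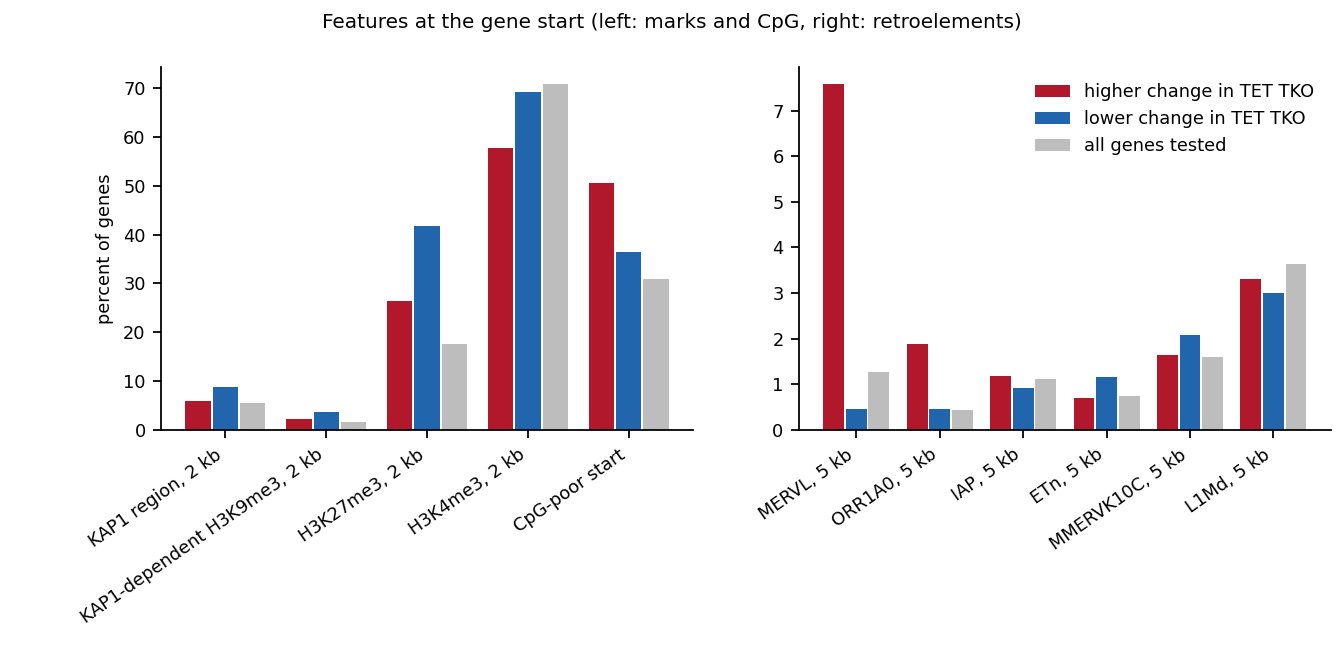
Percent of higher, lower and all tested genes with a mark of WT cells within 2 kb of the start or a CpG-poor start (left) and with a retroelement of each family within 5 kb (right). H3K27me3 is most frequent in the lower group (41.7%) and MERVL in the higher group (7.57%).

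5hmC could be set beside the genes in WT cells alone, with 1 library for each hairpin and no test. For KAP1 regions at the starts of lower genes the median log2 change of 5hmC over input on knockdown was 0.33 (41 regions), and for those of higher genes it was 0.41 (25 regions). Over 1055 KAP1 regions at the starts of all tested genes it was 0.34. With at least 30 input reads in place of 10 the medians were 0.11 (27 regions), 0.42 (14 regions) and 0.41 (651 regions), so the value of the lower genes depended on this filter. At Dcdc2a the region had 3 and 4 reads of 5hmC with shEmpty and shKAP1, over inputs of 15 and 11 reads, which shows how few reads lie behind a single region.

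Sets of 423 and 432 genes rest on 2 libraries per hairpin in TET TKO. Leaving out 1 TET TKO library gave 265 to 288 higher and 266 to 336 lower genes, and 185 (43.7%) and 196 (45.4%) genes kept their call in all 10 fits that left out a library.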

How the data were processed

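RNA-seq libraries (stranded poly(A), single-end) were deposited by the authors as raw read counts. Counts over genes came from featureCounts 1.5.0-p1 per the file headers, with strand used, on mm9. Counts over retroelements came from bedtools multicov on a repeat track in which LTRs and internal parts were merged. The aligner is uncertain, since HISAT2 2.0.1 is named but a file name is of the type TopHat writes. The region sets with read counts, also as deposited by the authors, gave 5hmC (hMeDIP-seq replicate 1 alone, at least 10 input reads, pseudocount 1, scaled to all region reads) and the positions of KAP1, H3K9me3, H3K4me3 and H3K27me3. Labels and file names gave the other hMeDIP replicate different roles, so it was not used.

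All 16 libraries (6 groups) entered 1 fit per table in edgeR 4.0.16 under R 4.3.3, with at least 16 reads over the libraries, scaling by TMM (trimmed mean of M values) and the quasi-likelihood F test in its robust form. Retroelements used the library sizes and scaling factors of the genes. The study describes its RNA-seq replicates as independent experiments. In simulated counts for this contrast (20017 genes, 200 changed), 72.7%, 82.1% and 92.5% of changes of 1.5, 2 and 3 log2 were recovered with 20 false calls. The changed genes were drawn from those with at least 200 reads over the 16 libraries, and no replicate effect was simulated. These rates therefore do not cover genes with fewer reads. Symbols came from GENCODE vM1 (37205 of 37991 identifiers). Where a group had no read, a floor of 3 reads over the group was used.

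Genes named were the 8 with the largest difference in each direction among called genes with at least 500 reads and separated libraries, the 4 with the smallest adjusted p, up to 3 per list and direction, genes discussed by the study (Dux, Iqcf1, Lrrn4, Meg3, Kcnq1) and checks. Other members of the lists, and genes beside a retroelement, were named after their values were seen. Members and lists were chosen with earlier results of these data known. Deviations of same-numbered libraries correlated in WT (0.399, 0.216 and 0.231) but not in TET TKO (-0.04). In WT replicates 2 and 3 correlated across numbers as strongly (0.213 and 0.232), so that only replicate 1 stood apart, and the pairing is a hint from the values. DESeq2 1.42.0 and limma 3.58.1 were alternatives. Figures were drawn with Python 3.11.15 and matplotlib 3.10.9.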

Additional observations from a re-analysis of the deposited data

Results flagged for a closer look

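The knockdown change differed between TET TKO and WT, by the edgeR test of the difference itself, for 423 genes with a higher and 432 with a lower change in TET TKO. All values below are this difference on the log2 scale, TET TKO minus WT, and every gene named passed the test with an adjusted p below 0.05.

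Genes that kept the call in all alternatives with an adjusted p were, on the higher side, Cldn9 (6.28), Gm8711 (6.25), Rassf4 (6.23), Aqp9 (5.71), Arntl2 (5.28), Prr18 (5.12), Limch1 (4.48), Pramel6 (4.35), Zfp353 (4.34), Pramel7 (3.63), Dhtkd1 (3.42), Zfp352 (3.11), BC080695 (2.97), Etv4 (2.77), Tcl1 (2.74), Bbs2 (2.69), Tcf15 (2.42), Zfp560 (2.35), Tuba3a (2.14), Nnat (2.13), 1500031L02Rik (1.90), Inhbb (1.74), Lrrn4 (1.62) and Pigm (1.59). Zfp560 rose in both lines, from 5.3 to 6.55 CPM to 35.8 to 36.7 CPM in WT and from 2.08 and 1.99 CPM to 67.3 and 63.9 CPM in TET TKO. Inhbb, an activin subunit, was at 14.2 to 25.3 CPM and then 7.23 to 12.1 CPM in WT (-0.99 log2, under 2-fold) and at 10.4 and 10.4 CPM and then 17.9 and 17.1 CPM in TET TKO. BC080695 had an MT2_Mm LTR 4679 bases upstream on its own strand with a difference of 5.77 (edgeR adjusted p = 0.03). The value of Gm8711 is fitted against a group without reads and is no bound.

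On the lower side these were Ctsh (-8.20), Ttc18 (-5.50), 2810429I04Rik (-5.23), Serpina3m (-4.91), Tgfbi (-4.80), Gm14443 (-4.78), Aox3 (-4.56), Olfr335-ps (-4.43), Dcdc2a (-3.67), Zfp703 (-3.60), Spic (-3.07), Zfp608 (-3.01), Rhox9 (-2.88), Ankrd45 (-2.12), Gata2 (-1.90), Itgb5 (-1.78), Sfmbt2 (-1.55), Col5a2 (-1.47), Tet3 (-1.30), Cbx8 (-1.29) and Zfp809 (-1.06). Zfp703 rose from 1.17 to 3.1 CPM to 17.2 to 20.5 CPM in WT, while TET TKO was at 15.9 and 15.2 CPM and then 9.07 and 10.4 CPM. Its difference for DNMT TKO was -2.51. Olfr335-ps is a receptor pseudogene with 2 reads in WT shEmpty, both in replicate 2, and its value ranged from -3.84 to -7.0 when a library was left out, the last without that replicate. Its reads may be shared with other family members.

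Some genes lost the call without 1 or 2 libraries, here with the range over the 10 fits that each left out a library. Without TET TKO shKAP1 replicate 2 these were Olfr153 (5.20, range 4.84 to 5.54), Dab2 (2.12, range 1.93 to 2.29), Cpeb1 (-1.73, range -1.91 to -1.60) and Isl1 (-1.15, range -1.30 to -1.04). Without TET TKO shEmpty replicate 2 it was Gm17514 (-6.20, range -6.62 to -5.60), without that library or TET TKO shKAP1 replicate 1 Col6a1 (-4.52, range -7.03 to -3.60) and Zfp964 (-1.17, range -1.34 to -1.0), and without either TET TKO shEmpty library BB287469 (3.73, range 3.56 to 3.97). With the floor of 3 reads, the change was at least 3.9-fold higher for Olfr153 and at least 5.2-fold lower for Gm17514.

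Without 4 of the 10 libraries in turn the call was lost for Fgf3 (2.58, range 2.18 to 2.88; WT shKAP1 replicate 3, TET TKO shEmpty replicate 2 and both TET TKO shKAP1 libraries), Ddit4 (-1.43, range -1.63 to -1.21; all TET TKO libraries), Ddit4l (1.02, range 0.89 to 1.14) and Sox4 (-1.02, range -1.17 to -0.88). For Ddit4l and Sox4 these were replicate 1 of both WT groups and replicate 2 of both TET TKO groups. Without 5 it was lost for Hoxb4 (-2.38, range -2.84 to -2.11; WT shEmpty replicate 2 and all TET TKO libraries) and Wnt6 (-1.85, range -2.50 to -1.38; WT shEmpty replicates 2 and 3, WT shKAP1 replicate 2, TET TKO shEmpty replicate 2 and TET TKO shKAP1 replicate 1). Hoxb3 (-5.31, range -6.00 to -4.06) lost it without the same 5 libraries as Wnt6 or without TET TKO shKAP1 replicate 2.

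The remaining genes lost the call without each of at least 6 libraries, all 4 of TET TKO included except for Olfr699, which kept it without TET TKO shKAP1 replicate 2. They were Olfr699 (4.90, range 4.25 to 5.32, at least 2.7-fold higher with the floor), Olfr376 (3.58, range 2.35 to 4.14), Stmn3 (2.16, range 1.81 to 2.66), Dkk1 (2.05, range 1.74 to 2.43), Neurod1 (2.04, range 1.71 to 2.55), Tex101 (1.83, range 1.54 to 2.11), Usp26 (1.78, range 1.48 to 2.15), Gad1 (1.70, range 1.25 to 1.89), Wnt3a (1.65, range 1.43 to 1.90), Foxd3 (1.57, range 1.28 to 1.75), Oas1g (1.46, range 1.17 to 1.69) and Oas1a (1.37, range 1.14 to 1.5). Lower ones were Hspa1a (-1.28, range -1.40 to -1.13), Thy1 (-1.30, range -1.52 to -1.17), Igf2 (-1.31, range -1.52 to -1.08), Col4a2 (-1.37, range -1.56 to -1.04), Irx3 (-1.60, range -1.77 to -1.46), Hand1 (-3.56, range -3.91 to -3.19) and Ifi204 (-4.57, range -4.82 to -4.16, at least 3.0-fold lower with the floor). Oas1a and Oas1g are near copies that may share reads.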

How the results depend on the processing

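The numbers of genes with a higher and a lower change were 415 and 436 with RLE scaling, 390 and 418 with no filter on reads, 457 and 454 with DESeq2, 457 and 424 with limma-voom, and 489 and 460 with the 10 WT and TET TKO libraries alone. With the replicate block they were 499 and 494, and of the genes called without it 416 and 419 remained. The block ended the call of 1 named gene, Igf2. With limma-voom 10 named genes lost the call, as did 10 with no filter on reads. RLE scaling ended 1, and the fit of the 10 libraries alone ended 2. Of the higher and lower genes called in the main fit, 372 and 388 remained with limma-voom. With DESeq2 397 and 378 remained, and with no filter on reads 373 and 390. With the block and the 10 libraries together, an alternative chosen after seeing the data, the numbers called were 514 and 487. With no fold threshold they were 942 and 1028, and knockdown calls were 9277 in WT and 6178 in TET TKO. Leaving out 1 library gave 265 to 486 higher and 266 to 416 lower genes, 3287 to 3513 knockdown calls in WT and 1973 to 2607 in TET TKO. The lowest numbers came without a TET TKO library: 288 and 336 without shEmpty replicate 1, 265 and 281 without shEmpty replicate 2, 267 and 279 without shKAP1 replicate 1, and 276 and 266 without shKAP1 replicate 2. No called gene changed sign under any of these alternatives. Values that changed sign were not called: Kcnq1 ranged from -2.0 (without TET TKO shKAP1 replicate 2) to 3.96, and Trim28 from -0.16 to 0.04 (without WT shKAP1 replicate 1). Of 79 named genes called, 45 kept the call under all alternatives that gave an adjusted p and 34 lost it under at least 1 of 19.

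Other windows moved the shares of genes with a mark or element. KAP1 regions were near 11.3% of higher, 12.5% of lower and 9.03% of all genes at 5 kb, and at 20.1%, 23.8% and 15.3% over the whole gene. H3K27me3 reached 48.1% of lower and 21.5% of all genes over the whole gene. MERVL lay near 3.55%, 0.231% and 0.541% of higher, lower and all genes at 2 kb, and near 10.4%, 2.08% and 2.41% at 10 kb. A group had no read for 12 higher and 20 lower genes, so that their fitted values depend on the prior count.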

Other observations

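In the fit of all retroelements 0.831% were called higher and 0.243% lower, and 6 families chosen for the comparison had different medians. The median difference of changes, TET TKO minus WT, was 1.81 log2 over 1618 MERVL or MT2_Mm integrants and 1.10 over 10293 integrants of L1Md_T or L1Md_A, the young L1 families, of which 227 were called higher and 14 lower. It was 0.54 over 1176 ETn integrants, with 51 higher and 24 lower, and 0.55 over 1086 of MMERVK10C, with 19 higher and 13 lower. It was 0.71 over 306 ORR1A0 integrants, with 26 higher and none lower. IAP, which of these 6 had the largest median change on knockdown in both lines (5.41 in WT and 5.42 in TET TKO), had a median difference of 0.05 over 2879 integrants, with 7 higher and 17 lower. Over all 123880 elements the median was 0.14. Integrants of 1 family are near copies, and many had few reads, so these medians describe the families and were not tested.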
